A study of Mus musculus with 11 samples.

Results

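The 10 genes described here encode the proteins that carry dietary lipid through the enterocyte, the absorptive cell of the small intestine. They are *Cd36*, *Npc1l1*, *Fabp1*, *Fabp2*, *Apob*, *Mttp*, *Apoa1*, *Apoa4*, *Apoc2* and *Apoc3*, and they were taken by gene symbol from a table of 45777 genes. The rule itself used no measured value, but earlier results of these data were known when the genes were chosen. RNA of skin and small intestine was sequenced from BALB/c mice whose skin had been treated with imiquimod (IMQ), a TLR7 agonist used to induce psoriasis-like dermatitis, to ask how skin inflammation affects the intestine. The mice were 8 to 10 weeks old when they received 62.5 mg of cream a day on shaved skin, either the 5% IMQ cream or Vaseline as vehicle (control). The labels give 5 to 8 days of treatment on back and ear for the groups as a whole, not by library. All mice were thus shaved and given cream, and no group was left untreated. Small intestine was represented by 3 control libraries (replicates 7, 8 and 9) and 2 IMQ libraries (10 and 11), and skin by 3 of each treatment (1 to 3 and 4 to 6). Neither the segment of the small intestine that was taken nor which libraries came from one mouse is given, so p-values measure only the spread between these samples.

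In fat absorption, fatty acids and sterols enter at the brush border, cytosolic binding proteins hold the fatty acids, and triglyceride is rebuilt in the endoplasmic reticulum. There the microsomal triglyceride transfer protein loads it onto apolipoprotein B to form a chylomicron. Smaller, exchangeable apolipoproteins coat the particle, which leaves through the lymph and is later hydrolyzed by lipoprotein lipase. Several of these genes, such as *Apob*, *Mttp* and *Apoa1*, are also active in the liver, the other organ that secretes lipoproteins.

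The libraries held 44995414 to 58526384 counts. Enterocyte RNA was plain in the small intestine, with *Anpep*, a brush border peptidase, at 1601 to 1778 FPKM (fragments scaled to transcript length and library size, a level that can be compared between genes). Markers of liver and exocrine pancreas were low there. The 5 liver genes summed to 1.06 to 1.93 FPKM, most of it *Ttr* at 0.797 to 1.62 FPKM, while *Alb* was at most 0.133 FPKM and *Ahsg* was listed at 0 in all 5 libraries. The 7 pancreatic genes, with *Cpb1* the most abundant, summed to at most 0.263 FPKM. Skin libraries held the keratinocyte gene *Krt10* at 1462 to 4051 FPKM. Still, the library labelled skin control replicate 2 stood apart from the other 5, since it held *Vil1*, an enterocyte gene of the microvillus, at 5.79 FPKM against 0 to 0.137 FPKM. Results that rest on this library are given with and without it.

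Of the 10 genes, 3 lie side by side on chromosome 9 (build GRCm38), where *Apoa1* (46228630 to 46230469), *Apoc3* (46233050 to 46235636) and *Apoa4* (46240844 to 46243458) span 14829 bases. *Apoc2* lies at 19671579 to 19677941 on chromosome 7, near *Apoc1* and *Apoe*, and overlaps the gene model *Gm44805*. *Fabp2* (chromosome 3, 122895072 to 122899506) overlaps *4933405D12Rik*, and how reads of such overlaps were counted is not given. The other genes are *Cd36* (chromosome 5, 17781690 to 17888959), *Npc1l1* (chromosome 11, 6211011 to 6230245), *Fabp1* (chromosome 6, 71199879 to 71205034), *Apob* (chromosome 12, 7977629 to 8016839) and *Mttp* (chromosome 3, 138089855 to 138143418). Counts were summed over whole genes, so exons and untranslated regions were not measured separately.

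The 250 bases before the annotated start are shown for the 3 genes with the largest fold changes in the small intestine, *Apoa4*, *Apoc2* and *Fabp1*, and for *Npc1l1*, whose mean was lower after IMQ. They are RefSeq sequences of build GRCm38.p6, read 5′ to 3′ in the direction of the gene, from chr9:46240594-46240843 (+ strand), chr7:19677942-19678191 (- strand), chr6:71199629-71199878 (+ strand) and chr11:6230246-6230495 (- strand). Capitals mark every match, on either strand, to 5 motifs: the nuclear receptor half-site AGGTCA, the HNF4 motif CAAAGTCCA, the HNF1 half-site GTTAAT, the GATA motif AGATAA and the TATA box TATAAA. No matches overlapped in these 4 windows.
Apoa4: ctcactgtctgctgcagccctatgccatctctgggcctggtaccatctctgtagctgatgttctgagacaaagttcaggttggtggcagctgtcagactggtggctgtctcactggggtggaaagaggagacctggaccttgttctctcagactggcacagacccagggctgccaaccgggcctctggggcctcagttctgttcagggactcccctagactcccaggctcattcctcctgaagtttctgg
Apoc2: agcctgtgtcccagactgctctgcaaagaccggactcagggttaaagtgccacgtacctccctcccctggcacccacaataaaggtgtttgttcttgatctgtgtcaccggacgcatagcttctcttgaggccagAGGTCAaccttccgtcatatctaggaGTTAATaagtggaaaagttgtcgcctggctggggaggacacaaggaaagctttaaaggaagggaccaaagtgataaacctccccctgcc
Fabp1: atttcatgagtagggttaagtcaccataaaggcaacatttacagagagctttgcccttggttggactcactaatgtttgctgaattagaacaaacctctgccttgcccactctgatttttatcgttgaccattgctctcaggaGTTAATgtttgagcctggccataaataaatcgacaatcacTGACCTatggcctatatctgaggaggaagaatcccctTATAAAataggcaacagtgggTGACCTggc
Npc1l1: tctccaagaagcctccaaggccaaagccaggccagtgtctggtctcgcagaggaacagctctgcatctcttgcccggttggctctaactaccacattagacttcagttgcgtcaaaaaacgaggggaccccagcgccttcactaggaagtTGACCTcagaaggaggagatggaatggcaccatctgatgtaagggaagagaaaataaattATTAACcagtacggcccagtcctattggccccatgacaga

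The window of *Fabp1* held 2 half-sites AGGTCA, read on the opposite strand, an HNF1 half-site and a TATA box 30 to 25 bases before the start. *Apoc2* held a half-site AGGTCA 115 to 110 bases and an HNF1 half-site 89 to 84 bases before the start. *Npc1l1* held the same pair of motifs, both read on the opposite strand. *Apoa4* matched none of the 5 motifs. A sequence was found for 9 of the 10 genes, *Apoc3* being the exception. Of these 9, AGGTCA was present in 4, GTTAAT in 3 and TATAAA in 2, while CAAAGTCCA and AGATAA were in 0. Among all 32851 promoter windows of this length the shares were 14% for AGGTCA, 6.43% for GTTAAT, 12.4% for TATAAA, 0.384% for CAAAGTCCA and 9.99% for AGATAA. A match describes letters only and is not evidence of a bound site.

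In control small intestine the levels of these genes spanned a wide range, with *Fabp2* ranked 12 by mean FPKM among all genes and *Cd36* ranked 2094. By FPKM, *Fabp2* was highest at 4439 ± 1743 (SD, n = 3), followed by *Apoa1* at 3633 ± 351, *Apoa4* at 2435 ± 1293 and *Fabp1* at 2429 ± 1279. These 4 neighbours did not differ beyond their spread. *Apoc3* (538 ± 122 FPKM), *Mttp* (529 ± 103 FPKM) and *Apoc2* (489 ± 273 FPKM) formed a second level with overlapping values. *Apob* at 220 ± 46.0 FPKM and *Npc1l1* at 187 ± 9.90 FPKM came next and overlapped, and *Cd36* was lowest at 33.4 ± 8.06 FPKM. Together the 10 genes took 1.71% to 2.62% of all counts in the 3 control libraries, 3.58% in IMQ replicate 10 and 4.38% in IMQ replicate 11.

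**Figure D1:**
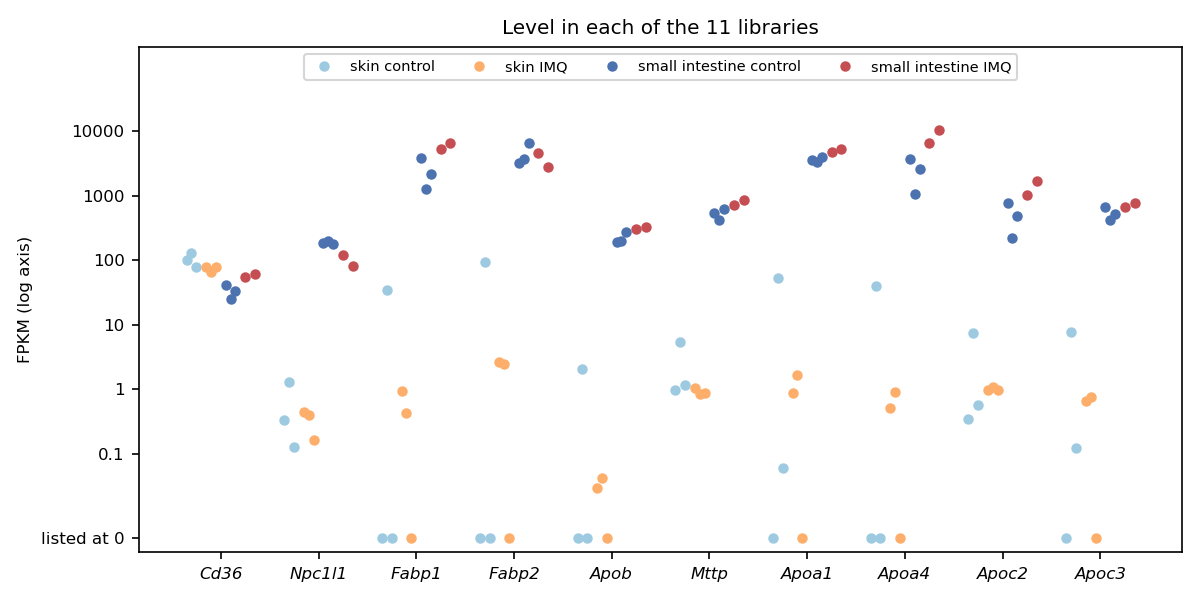
FPKM (log axis) of each gene in each of the 11 libraries, colored by tissue and treatment, with one point per library. Every gene except Cd36 is higher in all small intestine libraries than in any skin library, and the single high skin control point of most genes is replicate 2.

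In IMQ small intestine, 8 of the 10 genes had a higher mean than in controls, led by *Apoa4*, *Apoc2* and *Fabp1*, while *Npc1l1* and *Fabp2* had a lower one. The median log2 fold change was 0.57 over the 10 genes and -0.02 over all 19965 genes tested. The genes were chosen with earlier results of these data known, so such comparisons with all genes are descriptive. After Benjamini-Hochberg adjustment of edgeR's quasi-likelihood test, however, 0 of the 10 passed an adjusted p of 0.05, while 2.95% of all genes did. At an unadjusted p under 0.05 there were 5, of which 4 were higher (*Apoa4*, *Apoc2*, *Cd36*, *Fabp1*) and 1 lower (*Npc1l1*). DESeq2, the tool of the study, called 3 (background 6.04%) and limma-voom called 1 (background 3.19%). In normalized counts, both IMQ libraries lay above all 3 controls for 7 genes and below them for 1, whereas this was so for 15.1% and 13.9% of all genes. In bulk tissue, a change in the number of cells and a change in RNA per cell cannot be told apart.

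**Figure D2:**
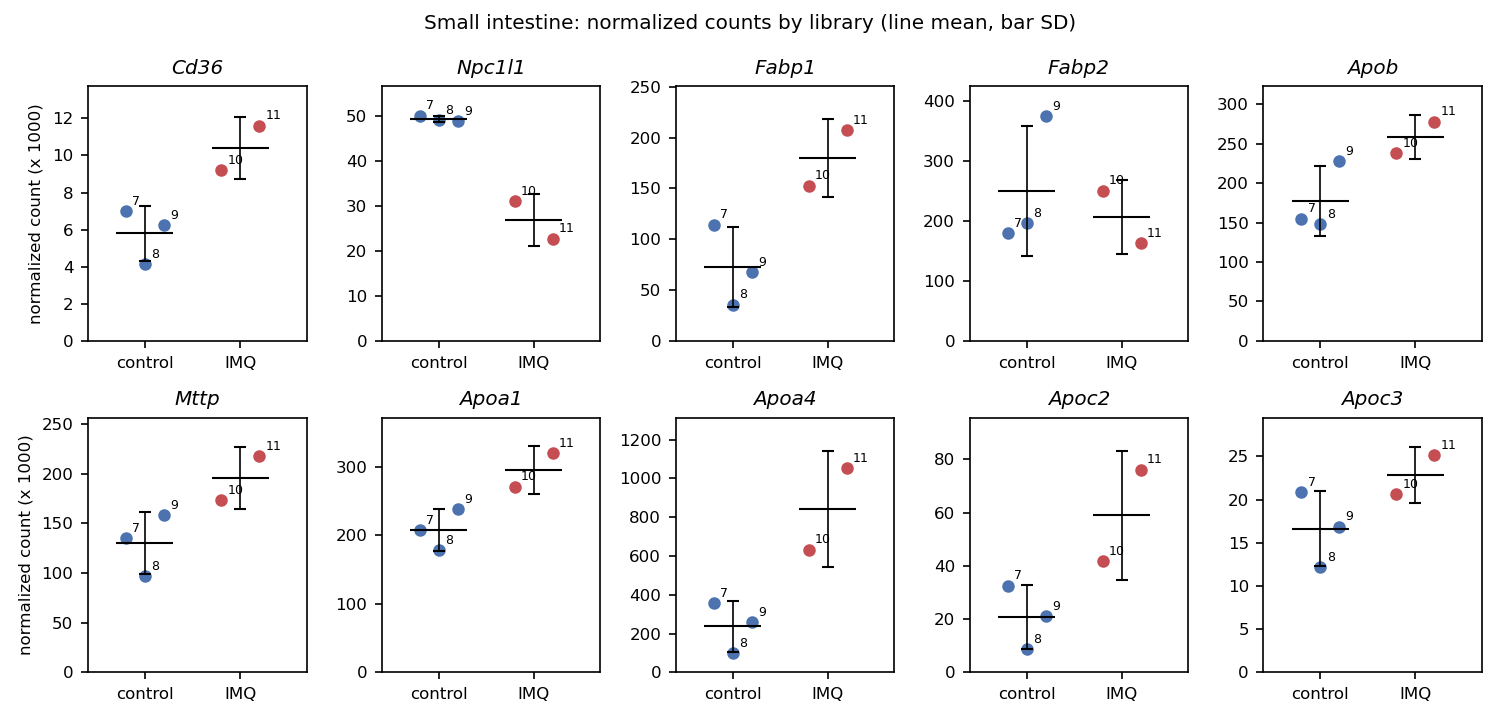
Normalized counts (axis in units of 1000) of the 10 genes in control and IMQ small intestine, one point per library with its number, a line at the mean and a bar of 1 SD (n = 3 and 2). Both IMQ points lie above all control points for 7 genes and below them for Npc1l1, while Fabp2 and Apoc3 overlap.

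At the brush border, *Cd36* encodes a scavenger receptor that binds long-chain fatty acids. Its normalized count was 7018, 4148 and 6241 in control replicates 7, 8 and 9 and 9228 and 11606 in IMQ replicates 10 and 11. Both IMQ libraries were thus above every control. The log2 fold change was 0.84 ± 0.23 (SE), with a 95% interval of 0.30 to 1.39 and an adjusted p of 0.147 in edgeR, against 0.0234 in DESeq2.

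*Npc1l1* encodes the sterol transporter of the apical membrane that is the target of ezetimibe. It was the steadiest of the 10 genes in controls, with normalized counts of 50047, 49014 and 48885, and was at 31022 and 22744 in IMQ libraries. Its controls lay within 1.02-fold of each other and both IMQ libraries were well below them, at 0.545 times the control mean. The log2 fold change was -0.88 ± 0.21 (SE), with a 95% interval of -1.36 to -0.39. The adjusted p was 0.0893 in edgeR, 8.63e-05 in DESeq2 and 0.0420 in limma-voom, so that the call depends on the tool.

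Of the cytosolic fatty acid binding proteins, *Fabp1* is shared with the liver and *Fabp2* is the intestinal form. *Fabp1* had normalized counts of 114520, 35767 and 67820 in controls and 152780 and 207403 after IMQ. The IMQ libraries were highest, but the controls alone spanned 3.20-fold. The log2 fold change of 1.31 ± 0.46 (SE; 95% interval 0.23 to 2.39) had an adjusted p of 0.276 in edgeR and 0.0288 in DESeq2.

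*Fabp2* gave no such separation. Its normalized counts were 179692, 195425 and 374060 in controls and 249979 and 163337 after IMQ, so the groups overlapped and both the highest and the second lowest value were controls. The log2 fold change was -0.27 ± 0.43 (SE), and the 95% interval of -1.28 to 0.73 leaves room for a change in either direction. Without control replicate 9 the value was 0.14.

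For chylomicron assembly, *Apob* encodes the structural protein of the particle and *Mttp* the large subunit of the transfer protein that lipidates it. *Apob* had normalized counts of 154844, 148010 and 227742 in controls and 238170 and 277752 after IMQ. *Mttp* had 135174, 96729 and 158432 in controls and 173395 and 217636 after IMQ. For both genes the libraries stood in one order, with control replicate 8 lowest, then 7, 9, 10 and 11, and the lower IMQ library exceeded the highest control by little. The log2 fold changes were 0.54 ± 0.32 (SE; adjusted p = 0.589, edgeR) for *Apob* and 0.59 ± 0.31 (SE; adjusted p = 0.532, edgeR) for *Mttp*. Their 95% intervals, -0.20 to 1.29 and -0.13 to 1.31, included 0.

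Among the exchangeable apolipoproteins, *Apoa4* encodes an intestinal protein that is secreted on chylomicrons in response to fat. Its normalized count was 357422, 97863 and 258683 in controls and 632956 and 1054760 after IMQ. The IMQ libraries were highest, with a mean 3.55 times that of the controls, but the highest control was 3.65 times the lowest. By mean FPKM, *Apoa4* ranked 23 among all genes in control and 2 in IMQ small intestine, and it alone took 0.202% to 0.684% of the counts in controls, 1.24% in IMQ replicate 10 and 1.94% in IMQ replicate 11. The log2 fold change was 1.83 ± 0.58 (SE), with a 95% interval of 0.46 to 3.20 and an adjusted p of 0.222 in edgeR and 0.0691 in DESeq2.

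*Apoc2* encodes the activator of lipoprotein lipase. Its normalized counts of 32627, 8655 and 21211 in controls and 41868 and 76181 after IMQ followed the same order of libraries as *Apoa4*, *Fabp1* and *Cd36*, with replicate 8 lowest, then 9, 7, 10 and 11. The controls spanned 3.77-fold and the IMQ mean was 2.83 times theirs. The log2 fold change was 1.50 ± 0.51 (SE; 95% interval 0.30 to 2.70), with an adjusted p of 0.258 in edgeR and 0.263 in DESeq2.

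*Apoa1*, the main protein of high-density lipoprotein, had normalized counts of 207595, 178225 and 238814 in controls and 271172 and 320521 after IMQ. *Apoc3*, which encodes an inhibitor of triglyceride clearance, had 20827, 12205 and 16881 in controls and 20604 and 25172 after IMQ. The groups were apart for *Apoa1* and overlapped for *Apoc3*, where control replicate 7 exceeded IMQ replicate 10. The log2 fold changes were 0.51 ± 0.30 (SE; adjusted p = 0.602, edgeR) and 0.46 ± 0.24 (SE; adjusted p = 0.532, edgeR). The 3 neighbours on chromosome 9 therefore had unequal fold changes, with that of *Apoa4* the largest. Their difference was not tested.

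**Figure D3:**
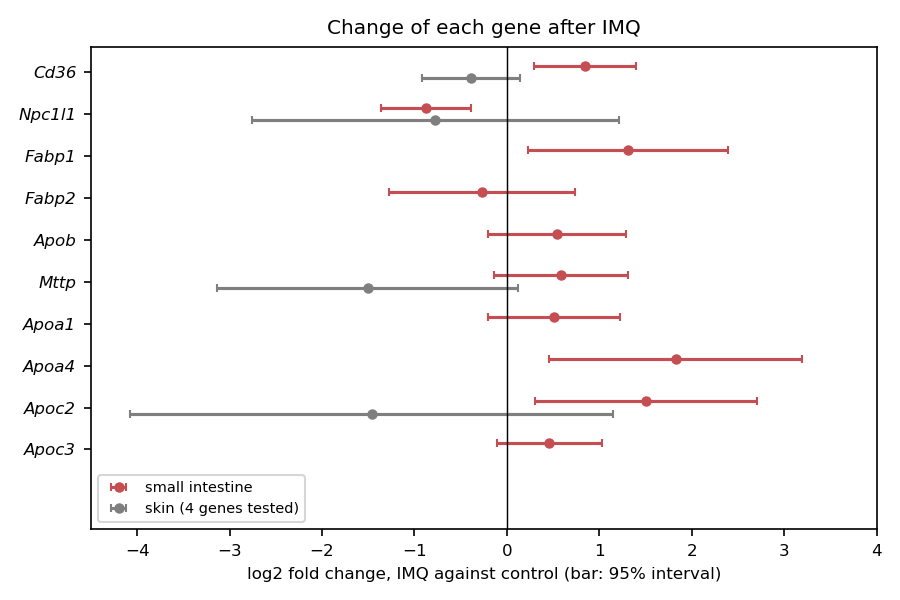
Log2 fold change of IMQ against control with its 95% interval for the 10 genes in small intestine (red) and the 4 tested in skin (gray). The intervals of Apoa4, Apoc2, Fabp1 and Cd36 lie above 0 and that of Npc1l1 below 0 in small intestine, and all 4 intervals in skin include 0.

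Markers of cell types differed between the same libraries. The summed FPKM of 10 enterocyte and epithelial genes was 6395 to 7923 in control and 5960 to 6022 in IMQ libraries, and 0 of the 10 passed the edgeR test. Of the 10, 9 had a negative log2 fold change and 1, *Alpi*, a positive one (0.74). *Alpi* was at 158 to 243 FPKM in control and 306 and 328 FPKM in IMQ libraries. When the libraries were scaled to equal levels of these genes, the median log2 fold change of all genes moved to 0.11. Under this scaling 4 of the 10 genes of fat absorption passed (background 4.52%): *Apoa4* (1.95), *Apoc2* (1.61), *Fabp1* (1.42) and *Cd36* (0.98). Their log2 fold changes in the main fit, where 0 passed, were close to these, at 1.83, 1.50, 1.31 and 0.84. The adjusted p in edgeR was 0.00023 with scaling and 0.222 in the main fit for *Apoa4*, and 0.00068 and 0.258 for *Apoc2*. Why the p-values changed more than the estimates was not tested. Macrophage genes were higher after IMQ, with a summed FPKM of 75.4 to 110 in control and 280 to 316 in IMQ libraries and 3 of 6 called (*Cd68*, *Adgre1* and *C1qa*). Also called higher were *Pecam1*, 1 of 6 endothelial genes (summed FPKM 24.5 to 35.2 in control and 55.8 to 66.3 in IMQ libraries), and *Ptprc*, 1 of 7 leukocyte genes (31.7 to 44.6 and 54.8 to 65.3). Most of the endothelial difference was *Pecam1* itself, at 8.66 to 11.2 FPKM in control and 37.7 and 31.7 FPKM in IMQ libraries. Its log2 fold change was 1.84, while the rest of that list ranged from 0.29 (*Emcn*) to 0.63 (*Cldn5*). The 7 goblet, Paneth and endocrine cell genes, led by the Paneth cell lysozyme *Lyz1*, summed to 5809 to 6640 FPKM in control and 4484 to 4819 FPKM in IMQ libraries, with 6 of 7 lower on average and 0 called in edgeR. The 5 smooth muscle genes, led by *Acta2*, summed to 249 to 390 FPKM in controls, 429 FPKM in IMQ replicate 10 and 124 FPKM in IMQ replicate 11, the library with the most *Apoa4*, and 0 were called. The part of these cell types in the values of the 10 genes was not tested. Macrophages and endothelium can express *Cd36*, and their part in its value was not tested. Of the adipocyte markers, another source of *Cd36*, *Lep* was listed at 0 in all 5 libraries, *Adipoq* was at most 0.0859 FPKM and *Plin1* at most 0.0310 FPKM. The 5 adipocyte markers summed to 32.5 to 47.3 FPKM in control and 74.1 to 78.1 FPKM in IMQ libraries, nearly all from *Fabp4* and *Cidec*, and 0 of the 2 tested passed in edgeR.

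Genes that vary along the length of the intestine were compared as well. The mean log2 level of 6 proximal genes minus that of 4 distal genes was 0.73, 0.02 and 0.02 in control replicates 7, 8 and 9 and 0.94 and 1.31 in IMQ replicates 10 and 11. Of the 5 proximal genes tested, 2 were higher and 3 lower after IMQ, the 4 distal genes were lower, and 0 were called in edgeR. Some were near the floor, with *Trpv6* listed at 0 FPKM in all 5 libraries and *Slc10a2* at most 0.932 FPKM. The log2 fold change was 1.40 for *Onecut2*, at 0.972 to 6.64 FPKM, but -0.04 for *Lct* and -0.01 for *Gata4*. *Lct*, a proximal gene, was at 186 to 305 FPKM in controls and 209 and 264 FPKM after IMQ, *Slc51a*, the most abundant of the distal genes, was at 105 to 122 FPKM in controls and 73.1 and 92.9 FPKM after IMQ, and the ileal *Fabp6* was at most 1.57 FPKM throughout. With this score as a covariate, the log2 fold change was 0.56 for *Apoa4*, 0.07 for *Apoc2*, 0.08 for *Fabp1*, 0.28 for *Cd36* and -0.74 for *Npc1l1*, and 0 of the 10 passed in edgeR (background 0.882%). The score separated the groups completely, so position in the intestine and IMQ cannot be told apart in these 5 libraries. How well a score with such low genes reflects position was not tested.

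The wider pathway was read from a list of 50 further genes, of which 48 were tested in small intestine. Of these, 4 were called higher in edgeR, against 2.77% of all genes, and 0 lower, against 0.17%. Called or not, 29 had a positive and 19 a negative log2 fold change. The median log2 fold change was 0.16. In lipid uptake, 4 of 5 genes had a positive log2 fold change and 2 were called. *Scarb1*, the scavenger receptor for cholesterol esters of high-density lipoprotein, was at 1172, 691 and 827 normalized counts in controls and 2277 and 2902 after IMQ (log2 fold change 1.53 ± 0.23 SE, adjusted p = 0.0146, edgeR). *Slc27a2*, a fatty acid transport protein and acyl-CoA synthetase, was at 6112, 4241 and 4078 in controls and 9115 and 12214 after IMQ (1.15 ± 0.22, adjusted p = 0.0400, edgeR). Both genes had IMQ libraries above every control. *Acsl5*, which activates fatty acids and is the most abundant of the group, had a log2 fold change of 0.35 ± 0.29 (adjusted p = 0.730, edgeR).

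All 7 genes of lipid droplets and lipolysis had a positive log2 fold change, and 1 was called. This was *Plin2*, a coat protein of the droplet, with normalized counts of 5401, 3809 and 3976 in controls and 8758 and 9742 after IMQ (log2 fold change 1.07 ± 0.18 SE, adjusted p = 0.0232, edgeR). The esterase gene *Ces2e*, the most abundant of this group, had a log2 fold change of 0.36 ± 0.23. Of 11 transcription factors, 5 had a positive and 6 a negative log2 fold change, and 1 was called. *Pparg*, the lipid-sensing nuclear receptor, had 443, 315 and 401 normalized counts in controls and 1161 and 833 after IMQ (1.37 ± 0.22 SE, adjusted p = 0.0195, edgeR). *Hnf4a*, the nuclear receptor of enterocyte and hepatocyte genes, had a log2 fold change of -0.18 ± 0.21. *Pparg* is also expressed in macrophages, whose markers were higher in the same libraries, and their part in its rise was not tested.

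DESeq2 called 6 genes of the list (background 6.04%), the 4 above with *Creb3l3*, a transcription factor, and *Dgat2*, a gene of triglyceride synthesis. The remaining groups gave no call in edgeR. These were 7 genes of triglyceride and sterol ester synthesis (median log2 fold change 0.07), 10 of chylomicron assembly and export (0.19), 5 other apolipoproteins of 7 listed (0.44) and 3 sterol efflux transporters (-0.06). Their most abundant members were *Dgat1*, the last enzyme of triglyceride synthesis (-0.12 ± 0.18 SE), *P4hb*, the small subunit of the transfer protein complex (0.48 ± 0.29), *Apoe* (-0.16 ± 0.22) and *Abcg5*, a sterol exporter (-0.01 ± 0.17). All 4 intervals included 0. The median of 0.44 for the other apolipoproteins was the value of *Apom*, at a mean of only 0.125 FPKM in control small intestine. *Apoa5*, *Apod* and *Apoh* were also low there, with means of 0.0496 to 0.717 FPKM. The calls of the list depended on single libraries. Of *Scarb1*, *Slc27a2*, *Plin2* and *Pparg*, all 4 passed in edgeR without control replicate 7, 1 (*Scarb1*) without control replicate 8, 0 without control replicate 9, 0 without IMQ replicate 10 and 1 (*Pparg*) without IMQ replicate 11. The one other gene called in these fits was *Apobec1*, which encodes the editing enzyme of *Apob* mRNA, without control replicate 9, and it is named here after its values were seen. With the proximal score as a covariate 0 of the list were called.

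**Figure D4:**
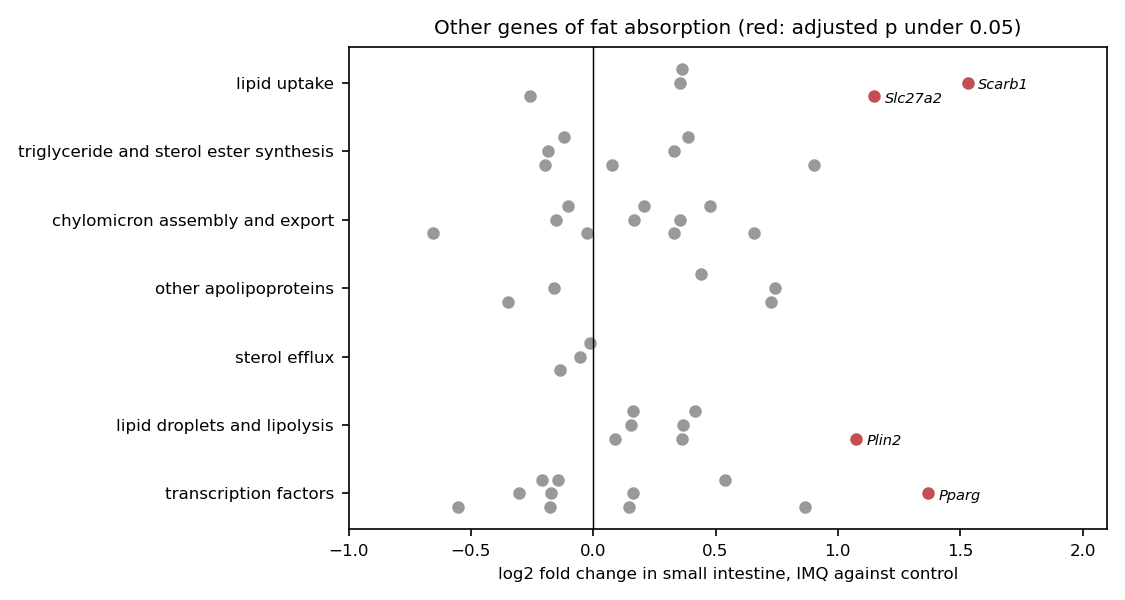
Log2 fold change of IMQ against control in small intestine for the 48 other genes of fat absorption that were tested, one point per gene in 7 groups (vertical scatter only separates points). The 4 red points, Scarb1, Slc27a2, Plin2 and Pparg, have an adjusted p under 0.05 in edgeR and all lie above 1.

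Skin served as the contrast tissue. The 10 genes took 0.0240% to 0.0757% of the counts there, and most of these were *Cd36*. Of the 10, 6 had a count of 0 in at least 1 skin library (*Fabp1*, *Fabp2*, *Apob*, *Apoa1*, *Apoa4* and *Apoc3*) and could not enter the test, which required a count in every library. The counts of *Apoa4* were 0, 3465 and 0 in skin controls 1, 2 and 3 and 46, 81 and 0 in IMQ replicates 4, 5 and 6. *Fabp2* showed the same pattern, with counts of 0, 4617, 0, 135, 127 and 0. The counts were thus highest in control replicate 2, low in IMQ replicates 4 and 5 and absent in control replicate 1 and IMQ replicate 6.

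As a percentage of the mean level in control small intestine, the 6 genes were at 0.962% to 2.11% in skin control replicate 2 (median 1.45%), at 0.0146% to 0.142% in IMQ replicate 4 and at 0.0180% to 0.144% in IMQ replicate 5. All 6 were at 0 in control replicate 1 and IMQ replicate 6, and 4 of 6 in control replicate 3. The ratio of *Apoa4* to *Fabp2* counts was 0.750 in skin control replicate 2, 0.341 in IMQ replicate 4 and 0.638 in IMQ replicate 5. In small intestine it was 1.99, 0.501 and 0.692 in controls and 2.53 and 6.46 after IMQ. How intestinal transcripts came into these skin libraries was not tested.

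**Figure D5:**
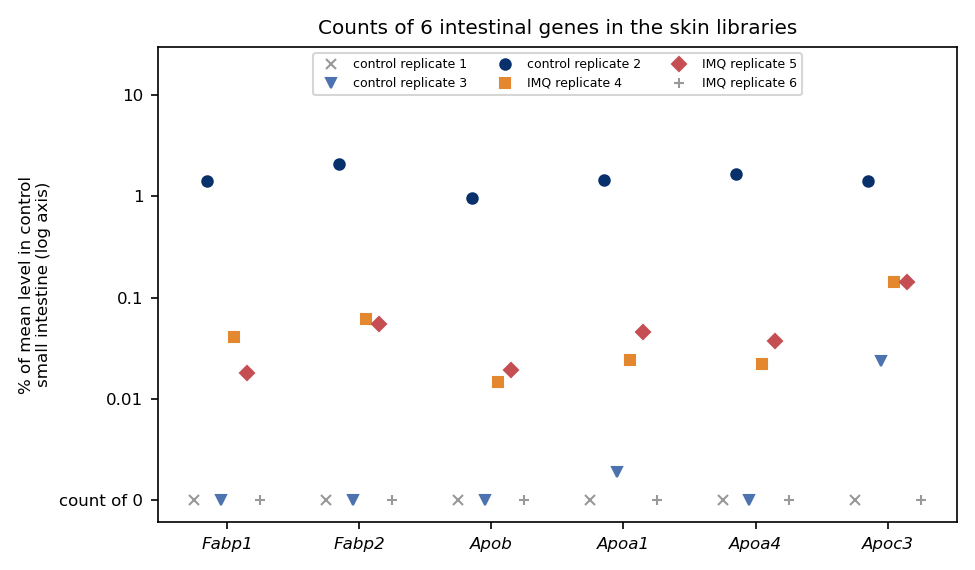
Level of 6 genes in the 6 skin libraries as a percentage of their mean level in control small intestine (log axis, with counts of 0 drawn at the bottom). Skin control replicate 2 lies between 0.962% and 2.11% for all 6 genes, and IMQ replicates 4 and 5 lie at or below 0.144%.

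Set against a floor of 3 counts per library in skin controls 1 and 3, where they were not counted, *Fabp2* was at least 82799-fold, *Apoa4* at least 78501-fold, *Apob* at least 58862-fold and *Fabp1* at least 24073-fold higher in control small intestine. These bounds cover counting error only. Of the 4 genes that could be tested between the control tissues, 4 passed, among 57% of all genes. *Npc1l1* (log2 difference 8.70 ± 0.86 SE), *Mttp* (8.14 ± 0.77) and *Apoc2* (7.84 ± 1.14) were higher in small intestine. With genes at 0 admitted, 10 of 10 passed, both under edgeR's own filter (background 60.1%) and with no filter (background 41.2%), and 9 were higher in small intestine. Without skin control replicate 2 the differences of *Npc1l1*, *Mttp* and *Apoc2* were 10.15, 9.49 and 10.54.

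*Cd36* was the exception, being lower in small intestine than in skin by a log2 difference of -1.16 ± 0.25 (SE; adjusted p = 0.00204, edgeR), and by -0.90 without skin control replicate 2. Its level in skin was 101, 132 and 77.4 FPKM in controls and 79.4, 66.3 and 79.6 FPKM after IMQ. The adipocyte gene *Adipoq* was at 59.7 to 183 FPKM in the same libraries, and the part of adipocytes in the difference was not tested.

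After IMQ, 0 of the 4 genes tested in skin passed in edgeR, DESeq2 or limma-voom, which called 6.74%, 14.8% and 6.25% of all genes, and 0 had an unadjusted p under 0.05 in edgeR. *Cd36* had a log2 fold change of -0.39 ± 0.22 (SE; 95% interval -0.92 to 0.14). Its counts were 17666, 19425 and 13531 in controls and 12708, 10788 and 11762 after IMQ, highest in control replicate 2. Leaving out each skin library in turn gave values of -0.58 to -0.15. The log2 fold changes of the other 3 depended strongly on control replicate 2. *Mttp* had counts of 236, 1155 and 285 in controls and 220, 179 and 170 after IMQ, and its log2 fold change of -1.51 ± 0.69 became -0.19 without that library. *Apoc2* had counts of 15, 284 and 25 in controls and 38, 43 and 36 after IMQ, and its value changed from -1.46 ± 1.10 to 1.22 (adjusted p = 0.0557, edgeR). *Npc1l1* changed from -0.77 ± 0.84 to 0.65.

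The test of the difference between tissues, the IMQ effect in small intestine minus that in skin, called 0 of the same 4 genes in edgeR (background 2.55%), 1 in DESeq2 (background 7.07%) and 0 in limma-voom (background 2.16%). At an unadjusted p under 0.05 there were 2, *Cd36* and *Mttp*. *Cd36* had the smallest p, with a difference of 1.24 ± 0.37 (SE; adjusted p = 0.111 in edgeR and 0.0283 in DESeq2). Over 11 fits that each left out 1 library, its difference was 0.98 to 1.45. The highest value was without skin control replicate 3, and only that fit called it (adjusted p = 0.0486, edgeR, background 2.94%). *Mttp* differed by 2.12 ± 0.86 and *Apoc2* by 2.98 ± 1.36, which became 0.77 and 0.27 without skin control replicate 2. An effect of IMQ on these genes in one tissue only was therefore not shown.

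Among the genes whose pattern was most like the mean of the 10 over all 11 libraries, with 16320 compared by Pearson's r of log2 normalized counts, were *Prap1* (r = 0.9995), *Sis* (0.998), *Muc13* (0.997) and *Slc5a12* (0.997). They share the libraries and the contrast of tissues, which sets most of r. In small intestine their mean FPKM from control to IMQ was 709 to 1196 for *Prap1*, 640 to 536 for *Sis*, 1167 to 1380 for *Muc13* and 80.5 to 80.6 for *Slc5a12*. All 4 were also present in skin control replicate 2, at 0.880 to 10.0 FPKM.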

How the data were processed

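RNA was extracted from skin and small intestine and sequenced by the authors with a TruSeq Stranded mRNA kit. They removed adapters, aligned the reads to mm10 with HISAT 2.1.0 and used StringTie 2.1.3b. The authors deposited one table with whole-number read counts, not normalized, and FPKM, which they scaled by transcript length and library size. TPM values in it were not used. The tool that produced the counts, the use of strand and the treatment of multi-mapped reads are not given in the sources used here.

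Each library was assigned to its group from the sample labels. In R 4.3.3, genes counted at least 1 time in all libraries of a fit were normalized by relative log expression and tested with edgeR 4.0.16 (quasi-likelihood test, Benjamini-Hochberg adjustment over all genes tested, called at an adjusted p under 0.05). Tissues were fitted separately for the IMQ effect and together (11 libraries, 4 groups) for tissue differences. DESeq2 1.42.0, limma 3.58.1 (voom, and log2 FPKM with 0.01 or 1 added), other normalizations and filters, leaving out each library, scaling to epithelial genes and a position score were alternatives. The edgeR step was tested on simulated data. Positions are from GRCm38.p6 and promoter sequences from RefSeq, read with Python 3.11.15.

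The members and lists were chosen with earlier results of these data known. Named genes were all 10 members, the pathway genes called in small intestine, the most abundant gene of each pathway group and marker list, and the 5 genes most like the members' mean, of which 1 is not reported here. Marker and pathway genes outside this rule were named after their values were seen.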

Additional observations from a re-analysis of the deposited data

How the results depend on the processing

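No paired analysis was possible because which libraries came from one mouse is not given. The fits across tissues treated all 11 libraries as independent, although skin and small intestine may share mice. Depth did not limit the 10 genes in small intestine, where each had at least 4114 counts per library, but in skin 6 of them had libraries at 0. The number of the 10 genes called in small intestine was 0 in edgeR and 0 without any one library, but 3 with DESeq2, 1 with limma-voom and 4 after scaling to epithelial genes. Between control tissues, 10 were called in place of 4 when genes were filtered by edgeR's filterByExpr or not filtered, since genes at 0 in some libraries then entered the fit. For the difference between tissues the number was 1 with DESeq2 and ranged from 0 to 1 when one library was left out. The 4 calls of the pathway list became 6 with DESeq2, 2 with log2(FPKM + 1) and 2 in one model of all 11 libraries. They became 0 with the position score as covariate, 7 after scaling to epithelial genes and 1 to 4 without one control library.

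Some log2 fold changes changed sign. With the position score they were -0.16 for *Apoc3* and 0.64 for *Fabp2* in small intestine. Leaving out one library gave -0.61 to 0.14 for *Fabp2* in small intestine, -2.00 to 1.22 for *Apoc2* and -1.26 to 0.65 for *Npc1l1* in skin (positive without skin control replicate 2), and -1.54 to 0.42 for the tissue difference of *Npc1l1*. The cause was not tested.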
